A study of Mus musculus with 10 samples.

Results

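Somatostatin-secreting delta cells and glucagon-secreting alpha cells of the mouse islet were compared gene by gene, using 2 delta and 3 alpha RNA-seq libraries. The genes described are the 12351 of 19213 listed that reached an RPKM (reads divided by gene length in kilobases and by the library's sequencing total) of at least 1 in 2 or more of these 5 libraries. The other 6862 did not reach that level. At the edge of the rule, Derl3 was inside with 1 and 1.05 RPKM in the delta libraries, and Mir7236 was outside, with its second-highest library at 0.999 RPKM. Of the genes described, 516 were below 1 RPKM in every alpha library and 299 were below 1 RPKM in every delta library, so these 815 entered through 1 cell type alone.

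The cells came from adult mice carrying 3 transgenes: mIns1-H2b-mCherry, which marks beta cell nuclei, a floxed YFP allele, and either Sst-Cre or Gcg-cre, which switches on YFP in delta or alpha cells respectively. Islets of 10 to 12 animals of one sex were pooled for each library, kept overnight in medium with 5.5 mM glucose, dissociated with trypsin and sorted. Delta replicate 1 and alpha replicates 1 and 2 were male, and delta replicate 2 and alpha replicate 3 were female. A further 5 libraries of beta cells, sorted by mCherry from the same crosses, entered the fit and its estimate of spread. Apart from that they are used here only to give levels. Because delta and alpha cells came from different Cre crosses and different animals, cross, pool and cell type cannot be told apart. A Cre driver leaves its YFP mark in every cell that has ever used the promoter, so the label follows past as well as present hormone expression.

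Delta cells lie scattered among the other endocrine cells of the islet and release somatostatin, which acts through inhibitory G protein-coupled receptors on neighbouring alpha and beta cells. Alpha cells release glucagon when blood glucose is low or amino acids are high, and glucagon makes the liver release glucose. Both are electrically excitable secretory cells that share a core of pan-endocrine transcription factors, granule proteins and ion channels, and both derive from the same Neurog3-expressing progenitors.

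Library totals, recovered from the steps between low RPKM values, were 20209291 and 18570481 reads for delta cells and 16688097, 16880700 and 17441439 for alpha cells. The 7 genes Sst, Gcg, Iapp, Pyy, Ppy, Ins2 and Ins1 made up 9.81% and 10.6% of all reads in delta libraries and 30.9%, 27.5% and 28.1% in alpha libraries. Since RPKM divides by the total, this gap raises other genes in delta cells: the median difference over all genes described was 0.27 on the log2 scale in the deposited values and −0.01 after median-ratio scaling, which equalises the typical gene. Alpha replicate 1 stood apart from the other alpha libraries. Its chi-square per gene was 60.4 and 68.8 against alpha replicates 2 and 3, while those 2 differed by 15.5 and the delta libraries by 13.95. The labels say only that replicates were separate pools, so p-values measure the spread between pools. That spread was estimated over all 10 libraries, 5 of them beta, and so rests mainly on alpha and beta pools.

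The sequences just upstream of the 2 defining hormone genes are shown first, because the Cre drivers and the labels turn on Sst and Gcg. Both are the 250 bases before the RefSeq transcription start in build GRCm38.p6, written 5′ to 3′ in the direction of the gene, which lies on the minus strand in each case. Sst is at chr16:23890845-23891094 and Gcg at chr2:62483654-62483903. Capitals mark the cyclic AMP response element TGACGTCA, a palindrome searched on both strands.
Sst: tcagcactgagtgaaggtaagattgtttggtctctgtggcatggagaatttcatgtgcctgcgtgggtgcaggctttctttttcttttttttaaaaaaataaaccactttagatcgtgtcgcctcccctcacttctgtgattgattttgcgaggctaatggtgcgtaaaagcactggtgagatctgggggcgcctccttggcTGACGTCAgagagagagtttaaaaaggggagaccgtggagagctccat
Gcg: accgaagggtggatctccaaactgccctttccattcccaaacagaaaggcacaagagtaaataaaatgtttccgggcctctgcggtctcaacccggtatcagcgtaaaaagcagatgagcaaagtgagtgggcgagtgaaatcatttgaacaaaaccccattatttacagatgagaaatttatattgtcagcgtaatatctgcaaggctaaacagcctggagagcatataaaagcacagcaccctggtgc
The element starts 48 bases before the Sst start and has no match in the Gcg window. Only exact matches within these 250 bases were sought, so an element further upstream of either gene would not be seen. It is present in 478 of 27025 promoters of this length, or 1.77%, and in 303 of the 9220 matched promoters of genes described here, or 3.29%.

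Sst, which encodes somatostatin (chromosome 16, 23889573 to 23890958, GENCODE M21 on GRCm38), was at 52388 and 60769.7 RPKM in the delta libraries and 2937, 1079.7 and 1470.4 RPKM in the alpha libraries. All delta libraries were far above all alpha libraries, and alpha replicate 1 held the most Sst of the alpha libraries, 2.30 times the mean of the other 2. The difference was 4.97 (SE 0.77, adjusted p = 9.43e-04) on the scale log2(RPKM + 1), delta minus alpha, in limma with Benjamini-Hochberg adjustment, the scale and test used throughout. Gcg, which encodes proglucagon (chromosome 2, 62474530 to 62483650), was at 21254 and 23233 RPKM in delta cells and 272196, 244207 and 249087 RPKM in alpha cells, a difference of −3.61 (SE 0.54, adjusted p = 7.90e-04). The libraries did not overlap, yet Gcg in the delta libraries was 8.72% of its alpha mean, while Sst in the alpha libraries was 3.23% of its delta mean. In beta libraries Sst was 99.6 to 922 RPKM and Gcg 464 to 2852 RPKM.

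Hhex, a homeobox repressor needed for delta cell identity (chromosome 19, 37434810 to 37440731), was at 193 and 193 RPKM in delta cells and 5.41, 2.07 and 3.04 RPKM in alpha cells, a difference of 5.45 (SE 0.39, adjusted p = 7.68e-06). Ttr, which encodes the thyroid hormone carrier transthyretin, was at 566 and 666 RPKM in delta cells and 7154, 5355 and 6445 RPKM in alpha cells, a difference of −3.35 (SE 0.21, adjusted p = 3.20e-06). Both markers separated the cell types with no overlap and in the direction the labels give. Over all genes described, the delta libraries lay wholly above the alpha libraries for 60.9% and wholly below them for 10.9%. Of the delta cell marker list, 12 of 13 genes described were called at least 2-fold higher in delta cells and 0 lower, against 1162 of 12351 genes described, or 9.41%, called at least 2-fold higher. Of the alpha cell marker list, 12 of 18 were called at least 2-fold lower, against 346 genes, or 2.8%. Only 1 cell type reached 1 RPKM for 4 of 13 delta markers and 1 of 18 alpha markers, so these had to differ. A 2-fold call here means an adjusted p under 0.05 and a log2 difference of at least 1. The exception among alpha markers was Dpp4, a surface peptidase that cleaves incretins, at 27.6 and 30.1 RPKM in delta cells and 8.16, 12.7 and 9.35 RPKM in alpha cells, higher in delta cells by 1.42 (SE 0.25, adjusted p = 0.00208). Gc, which encodes the vitamin D carrier and is used as an alpha cell marker, was at 225 and 234 RPKM and 304, 281 and 355 RPKM and was not called (adjusted p = 0.358). These lists were drawn up with the literature on these cell types and earlier results of these data known, so their direction is not independent evidence.

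The other hormone genes divided in 2 groups. Iapp, which encodes the amyloid peptide co-secreted with insulin, was at 29094 and 28799 RPKM in delta cells and 2233, 2599 and 2098 RPKM in alpha cells, a difference of 3.68 (SE 0.20, adjusted p = 1.71e-06). It was not called when no filter on low values was set (adjusted p = 0.0577), and beta libraries held 51614 to 63052 RPKM. Pyy, which encodes peptide YY, was at 26057 and 27812 and 8706, 5079.7 and 6034 RPKM, and Ppy, which encodes pancreatic polypeptide, at 18106 and 16986 and 6535, 4517 and 4751 RPKM, in each case delta first. Neither overlapped, with differences of 2.05 (SE 0.28, adjusted p = 4.89e-04) for Pyy and 1.76 (SE 0.30, adjusted p = 0.00149) for Ppy, although quantile normalization put these at −0.034 and −0.17. Quantile normalization gives the highest-ranked genes of all libraries nearly equal values. Ins2 was at 2124 and 2998 RPKM and 2048, 1969 and 1617 RPKM and Ins1 at 380.0 and 578 and 341, 344 and 287 RPKM, neither called (adjusted p = 0.278 and 0.166). Beta libraries held 177833 to 363484 RPKM of Ins2, so the insulin transcripts stood far below the beta level in both cell types. In bulk libraries, fewer cells of a type and less RNA per cell cannot be told apart.

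**Figure D1:**
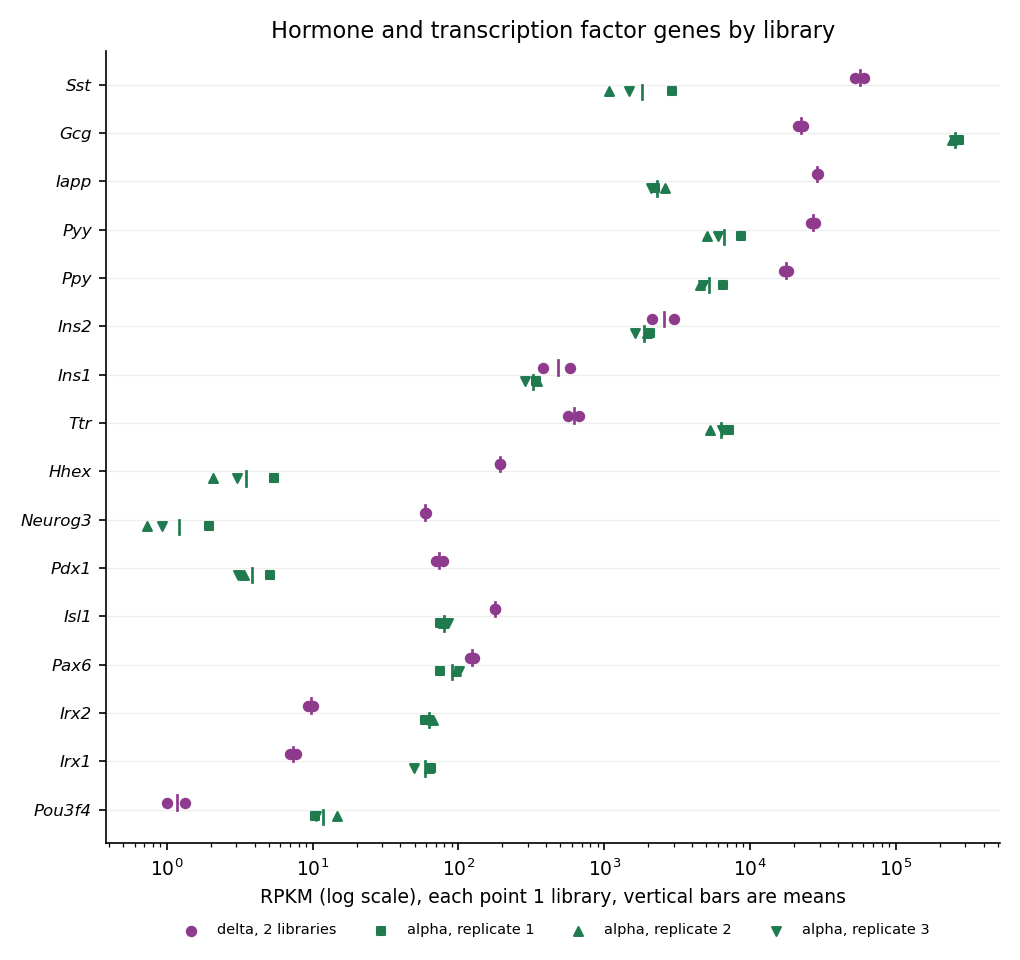
RPKM on a log scale of hormone genes, Ttr and transcription factors in each library, with delta libraries as circles, the 3 alpha libraries as squares and triangles, and means as vertical bars. Sst, Iapp, Hhex, Neurog3 and Pdx1 lie to the right in delta cells and Gcg, Ttr, Irx1, Irx2 and Pou3f4 in alpha cells, while Ins1, Ins2 and Pax6 lie close together; the alpha replicate 1 square is the rightmost alpha point for Sst, Hhex and Neurog3.

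Across all genes described, 1162 (9.41%) were at least 2-fold higher in delta cells and 346 (2.8%) at least 2-fold lower. Leaving out any delta or alpha library left the 2-fold counts between 1074 and 1215 and between 300 and 380, and without alpha replicate 1 they were 1105 and 380. Counts of any size did change, with 4051 (32.8%) higher and 740 (5.99%) lower in the deposited values, and 1836 (14.9%) and 1312 (10.6%) after median-ratio scaling. Calls in the delta direction were therefore 84.6% of all calls in the deposited values and 58.3% after scaling.

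The 15 largest differences in the delta direction were those of Cd24a, Hhex, Ly6h, Frzb, Sst, Neurog3, Ghsr, Mest, Bmp3, Ptprz1, Gap43, Pdyn, Cabp7, Fam159b and Creb3l1, with log2 differences from 5.51 for Cd24a down to 4.53 for Creb3l1. Cd24a, a glycolipid-anchored surface glycoprotein (chromosome 10, 43578284 to 43584265), was at 567 and 557 RPKM in delta cells and 15.5, 8.55 and 10.4 RPKM in alpha cells, with a standard error of 0.34 and an adjusted p of 3.07e-06. Ly6h, a surface protein of the Ly6 family (chromosome 15, 75551268 to 75567255), was at 46.4 and 73.2 and 1.23, 0.217 and 0.419 RPKM, and Mest, an imprinted gene, at 87.7 and 99.2 and 3.43, 1.60 and 2.27 RPKM. Creb3l1, a transcription factor anchored in the endoplasmic reticulum, was at 58.7 and 64.3 RPKM in delta cells and 2.08, 1.80 and 1.36 RPKM in alpha cells. Cabp7, a calcium-binding protein, was at 55.5 and 59.9 and 3.0, 0.932 and 0.820 RPKM, and Fam159b at 146 and 159 and 6.27, 4.30 and 5.86 RPKM. In these genes the lowest delta library exceeded the highest alpha library, as the rule that chose them requires.

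Among the largest differences in the alpha direction were those of Hamp, Gcg, Lrg1, Higd1a, Ttr, Fgb, Serpina3n, Lpl, Ankrd34c, Slc30a8, Steap4, Avpr1b, Kcnh6 and Pdk4, from −3.92 for Hamp to −2.98 for Pdk4. Hamp, which encodes the iron-regulating peptide hepcidin (chromosome 7, 30942368 to 30944032), was at 2.39 and 1.91 RPKM in delta cells and 21.9, 59.2 and 60.1 RPKM in alpha cells. Slc30a8, the zinc transporter of secretory granules, was at 44.3 and 43.3 RPKM in delta cells and 403, 371 and 421 RPKM in alpha cells, and beta libraries held 161 to 209 RPKM. The difference of Slc30a8 was −3.17 (SE 0.13, adjusted p = 4.97e-07), with alpha libraries within a narrow range of each other. Higd1a, a mitochondrial protein induced by low oxygen, was at 6.63 and 3.59 and 51.2, 82.6 and 59.6 RPKM, and Ankrd34c at 0.520 and 0.805 and 9.27, 15.4 and 16.7 RPKM.

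Of these, 4 differed by 3-fold or more among the alpha libraries. Steap4, a metalloreductase, was at 2.08, 10.5 and 34.0 RPKM in alpha cells and 0.158 and 0.635 RPKM in delta cells. Serpina3n, an inhibitor of serine proteases, was at 5.14, 25.7 and 54.9 and 1.12 and 1.58 RPKM, and Lrg1, a leucine-rich glycoprotein, at 4.38, 30.6 and 31.0 and 0.914 and 0.398 RPKM, alpha first. Fgb, a fibrinogen chain, was at 29.4, 98.1 and 121 RPKM in alpha cells and 8.56 and 4.998 RPKM in delta cells. Alpha replicate 1 was the lowest alpha library in each of these. Hamp, Fgb, Serpina3n and Lrg1 are known from the acute-phase response of the liver. Without delta replicate 2 the calls ended for Lrg1 (adjusted p = 0.0813), Serpina3n (0.0681), Steap4 (0.057) and Fgb (0.0519). Lrg1 also lost its call without delta replicate 1 (adjusted p = 0.0505) or alpha replicate 3 (0.0579).

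The range of differences was not symmetric. At a log2 difference of 4 or more, 28 genes were higher in delta cells and 0 lower, and at 3 or more the counts were 103 and 14. A gene at 10 RPKM or more in both delta libraries and below 1 RPKM in all alpha libraries was found 38 times, and the reverse 0 times. These counts use the deposited values, where the median difference was 0.27, against −0.01 after median-ratio scaling. They were not repeated after scaling. The reverse rule asked for 10 RPKM in 3 alpha libraries, against 2 delta libraries in the forward rule. Steap4, Lrg1 and Ankrd34c were below 1 RPKM in both delta libraries and failed it through alpha replicate 1 alone. That library was at 2.08, 4.385 and 9.27 RPKM. Of the genes called at least 2-fold lower in delta cells, 161 had an alpha level of 10 RPKM or more, and their delta mean was a median of 23.5% of the alpha mean and at least 2.55%. Only 16 of the 161 (9.94%) were under 10% in delta cells, and 7 of them (Steap4, Lrg1, Hamp, Serpina3n, Ankrd34c, Higd1a and Fgb) were lower relative to alpha cells than Gcg itself. In the other direction 116 of 670 genes (17.3%) were under 10%, with a lowest value of 0.897%. How much of the alpha transcripts in delta libraries came from alpha cells or alpha cell RNA in the sort was not tested.

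The 10 most abundant of the 38 genes on in delta and off in alpha cells were Sftpd, Gpr116, Cacna1h, Cacna2d2, Ppp1r17, Spock3, Jakmip1, Rasgef1a, Th and Atp1b2. Sftpd, which encodes surfactant protein D, was at 29.2 and 23.5 RPKM in delta cells and 0.226, 0.223 and 0.259 RPKM in alpha cells. Gpr116, an adhesion G protein-coupled receptor, was at 24.7 and 26.4 and 0.618, 0.285 and 0.558 RPKM. Th, which encodes tyrosine hydroxylase, the first enzyme of dopamine synthesis, was at 18.7 and 17.1 and 0.580, 0.506 and 0.587 RPKM. Ppp1r17, a phosphatase inhibitor, was at 25.5 and 17.6 and 0.379, 0.136 and 0.297 RPKM, Spock3, a secreted proteoglycan, at 16.5 and 24.3 and 0.913, 0.126 and 0.262 RPKM, and Atp1b2, a subunit of the sodium pump, at 16.5 and 18.9 and 0.810, 0.761 and 0.698 RPKM. Jakmip1 averaged 19.1 RPKM and Rasgef1a, an exchange factor for Ras-family proteins, 17.9 RPKM in delta cells. The on and off levels are how these genes were chosen, so the absence of overlap says nothing more about them.

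**Figure D2:**
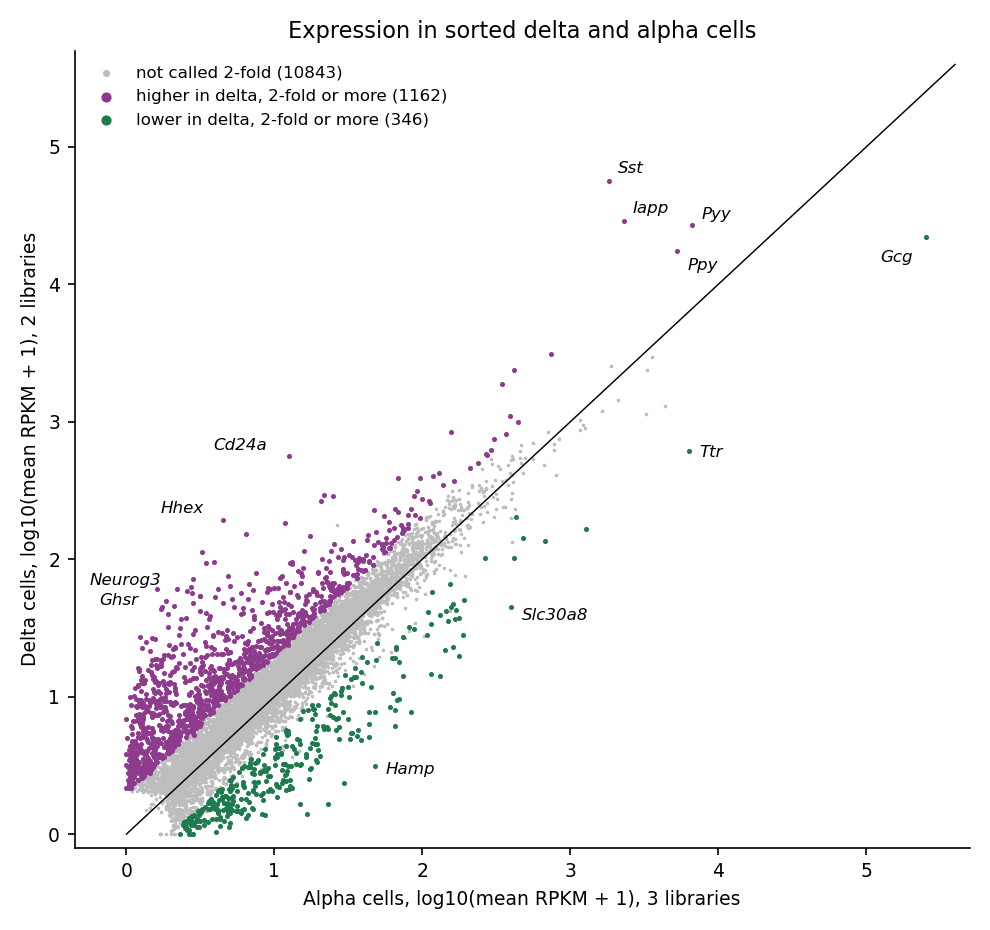
Mean expression of the 12351 genes described, as log10(mean RPKM + 1), in alpha cells (horizontal) and delta cells (vertical), with genes called at least 2-fold higher in delta cells in purple (1162) and lower in green (346); the line marks equal means. The purple cloud reaches the left edge, where alpha means are near 0, while few green points approach the bottom edge at high alpha levels.

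Of the 53 islet transcription factors described, 12 (22.6%) were called at least 2-fold higher in delta cells and 9 (17%) at least 2-fold lower. All genes described gave 9.41% and 2.8%. Only 1 cell type reached 1 RPKM for 6 of the 53, so these had to differ. Neurog3, the basic helix-loop-helix factor that starts endocrine differentiation (chromosome 10, 62133090 to 62134763), was at 58.8 and 59.7 RPKM in delta cells and 1.95, 0.731 and 0.931 RPKM in alpha cells, a difference of 4.84 (SE 0.22, adjusted p = 6.64e-07). Beta libraries held 0.266 to 0.658 RPKM of Neurog3. Pdx1, a homeobox activator of the insulin and somatostatin genes, was at 70.0 and 78.2 RPKM in delta cells and 5.08, 3.36 and 3.07 RPKM in alpha cells, a difference of 3.97 (SE 0.20, adjusted p = 9.45e-07), and at 85.6 to 121 RPKM in beta cells. For both factors the delta libraries lay close together and far above every alpha library. Nr4a1, an orphan nuclear receptor induced by activity, was at 71.0 and 29.5 RPKM in delta cells and 5.61, 4.98 and 6.21 RPKM in alpha cells, with delta replicate 1 the higher.

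On the alpha side, Irx1, an Iroquois homeobox factor, was at 7.03 and 7.70 RPKM in delta cells and 64.6, 62.9 and 49.5 RPKM in alpha cells, a difference of −2.84 (SE 0.20, adjusted p = 7.50e-06), and its neighbour in the family Irx2 at 10.0 and 9.31 and 59.2, 67.4 and 61.7 RPKM (−2.60). Pou3f4, a POU factor of alpha cells, was at 1.002 and 1.34 and 10.3, 14.7 and 10.5 RPKM (−2.56). In each of these the delta libraries kept a low but measurable level, between 9.88% (Pou3f4) and 15.4% (Irx2) of the alpha mean. Among factors shared by islet cells, Isl1, a LIM homeobox factor, was at 179 and 178 RPKM in delta cells and 74.7, 78.0 and 84.2 RPKM in alpha cells, higher by 1.15, and Pax6, a paired homeobox factor, was at 127 and 121 and 74.8, 96.5 and 101 RPKM and was not called (adjusted p = 0.105).

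Receptors coupled to G proteins divided the cell types widely: of 46 described, 21 were called at least 2-fold higher in delta cells and 7 at least 2-fold lower, or 45.7% and 15.2%, beside 9.41% and 2.8% of all genes described. With a pseudocount of 0.1 the lower count was 11. Of the 46, 21 passed 1 RPKM in 1 cell type alone, and these had to differ. Ghsr, the ghrelin receptor (chromosome 3, 27371351 to 27378010), was at 50.2 and 46.7 RPKM in delta cells and 1.45, 0.548 and 0.530 RPKM in alpha cells, a difference of 4.78 (SE 0.26, adjusted p = 1.46e-06). Glp1r, the receptor for glucagon-like peptide 1, was at 35.5 and 44.3 RPKM in delta cells and 1.78, 2.72 and 2.91 RPKM in alpha cells, a difference of 3.50 (SE 0.19, adjusted p = 1.73e-06), and at 100.5 to 204 RPKM in beta cells. The glucagon receptor Gcgr was also higher in delta cells, at 5.72 and 5.53 against 0.280, 0.184 and 0.327 RPKM (2.41), whereas Gipr, the receptor for glucose-dependent insulinotropic polypeptide, overlapped at 16.8 and 10.5 and 14.5, 21.0 and 23.5 RPKM and was not called (adjusted p = 0.212; 0.045 and lower in delta cells after median-ratio scaling).

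In some receptor families 1 member lay on each side. Among somatostatin receptors, Sstr1 was at 16.0 and 20.5 RPKM in delta cells and 0.821, 0.811 and 1.41 RPKM in alpha cells (3.21), while Sstr2 was at 2.64 and 2.29 and 15.6, 19.2 and 19.2 RPKM (−2.45). Among vasopressin receptors, Avpr1b (chromosome 1, 131599239 to 131612000) was at 3.57 and 4.62 RPKM in delta cells and 38.0, 40.1 and 49.1 RPKM in alpha cells, a difference of −3.13 (SE 0.18, adjusted p = 2.36e-06), while Avpr1a was at 2.41 and 2.04 and 0.0449, 0.0665 and 0.0859 RPKM (1.60). Avpr1a was the lower vasopressin receptor in both cell types, and it passed 1 RPKM in delta cells alone, so it had to differ. Of the long-chain fatty acid receptors, Ffar1 was at 2.08 and 1.37 RPKM in delta cells and 9.56, 11.7 and 11.4 RPKM in alpha cells (−2.16). Ffar4, which answers to the same class of ligand, was at 57.7 and 64.1 and 22.9, 25.2 and 21.7 RPKM, higher in delta cells by 1.34 (adjusted p = 0.0221). The call of Ffar4 ended when delta replicate 1 or 2, or alpha replicate 1 or 3, was left out (adjusted p = 0.117, 0.113, 0.0508 and 0.0912). Gpr119, a receptor for lipid amides, was at 4.67 and 4.13 and 36.2, 30.2 and 31.4 RPKM (−2.63). The adrenergic receptors split likewise, with Adra2a, which couples to inhibitory G proteins, at 9.43 and 10.0 and 0.836, 0.701 and 0.513 RPKM (2.67) and Adrb1, which couples to stimulatory G proteins, at 0.516 and 0.411 and 4.98, 4.59 and 3.94 RPKM (−1.90).

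Other receptors of delta cells included Chrm4, an inhibitory muscarinic acetylcholine receptor, at 20.8 and 23.3 RPKM against 1.71, 1.03 and 0.663 RPKM in alpha cells (3.49), and P2ry1, a receptor for ADP, at 11.1 and 12.0 against 0.400, 0.198 and 0.206 RPKM (3.29). Crhr2, the receptor that binds urocortin 3 from beta cells, was at 4.67 and 5.61 RPKM in delta cells and 0.122, 0.0201 and 0.0973 RPKM in alpha cells, a difference of 2.50 (SE 0.11, adjusted p = 5.25e-07). At these depths the alpha values of Crhr2 rest on few reads.

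**Figure D3:**
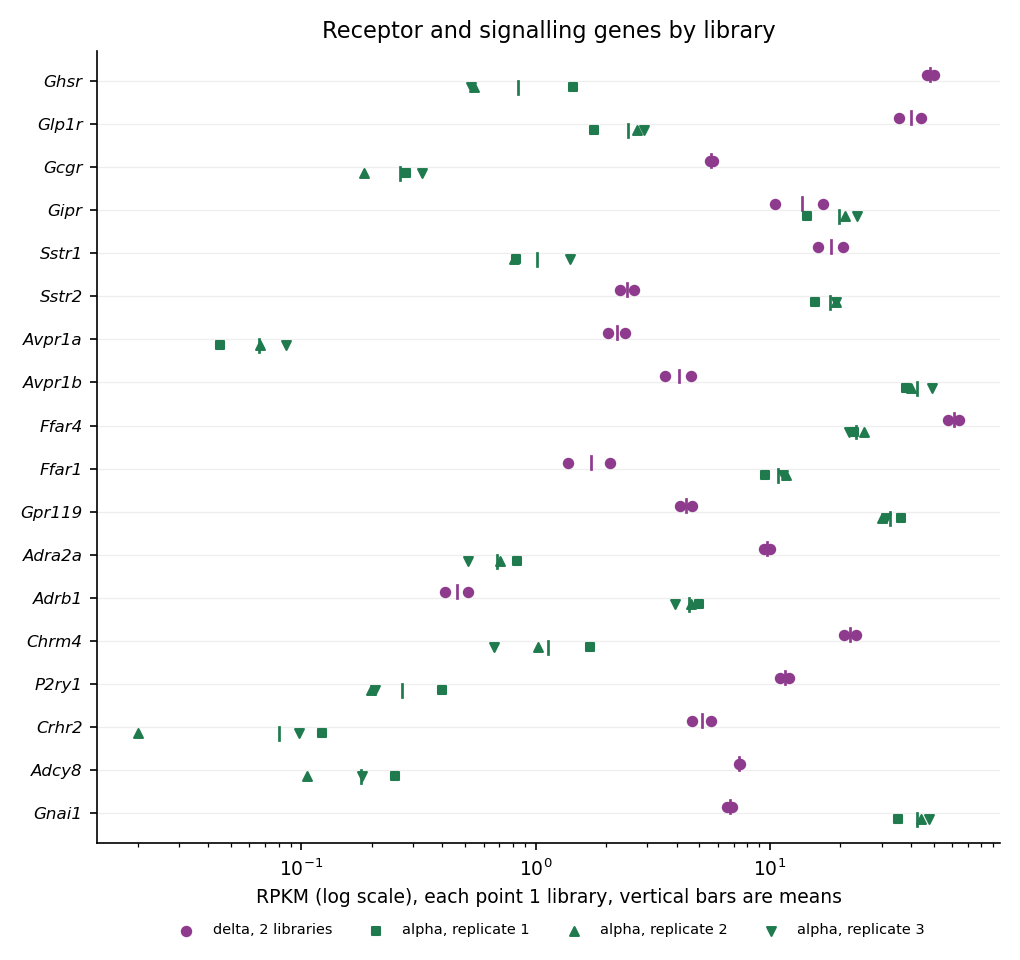
RPKM on a log scale of receptor genes and 2 signalling genes in each library, with delta libraries as circles and the 3 alpha libraries as squares and triangles. Within the somatostatin, vasopressin and adrenergic receptors, 1 member lies to the right in delta cells and another in alpha cells; Gipr overlaps.

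Downstream of the receptors, 17 of 53 genes for G protein subunits, cyclic AMP enzymes and their regulators were called at least 2-fold higher in delta cells and 2 at least 2-fold lower. The shares were 32.1% and 3.77%, beside 9.41% and 2.8% of all genes described. Only 1 cell type reached 1 RPKM for 8 of the 53. Adcy8, a calcium-stimulated adenylyl cyclase, was at 7.47 and 7.36 RPKM in delta cells and 0.250, 0.106 and 0.182 RPKM in alpha cells, a difference of 2.83 (SE 0.10, adjusted p = 3.15e-07). Rapgef3, a cyclic AMP sensor that activates Rap proteins, averaged 8.79 against 0.724 RPKM (2.50), delta first, and Pde7b, a cyclic AMP phosphodiesterase, 6.31 against 0.238 RPKM (2.53). Rgs9, which speeds the turn-off of G protein signals, was at 66.5 and 55.5 and 6.71, 9.29 and 12.8 RPKM (2.53). The genes on the alpha side were Gnai1, an inhibitory alpha subunit, at 6.59 and 6.91 RPKM in delta cells and 35.3, 44.4 and 47.7 RPKM in alpha cells (−2.48 (SE 0.33, adjusted p = 3.88e-04)), and Rgs4, at 111 and 92.3 and 159, 293 and 342 RPKM (−1.32), which was not called without alpha replicate 3 (adjusted p = 0.0648) or without delta replicate 2 (0.0979).

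Among 19 minor peptide genes described, 4 were called at least 2-fold higher in delta cells and 5 at least 2-fold lower; the first count fell to 1 after median-ratio scaling or without delta replicate 2. Pdyn, the precursor of the opioid peptide dynorphin, was at 75.1 and 114 RPKM in delta cells and 4.59, 1.63 and 2.59 RPKM in alpha cells, a difference of 4.64 (SE 0.32, adjusted p = 6.43e-06), and at 128 to 208 RPKM in beta cells. Edn3, which encodes endothelin 3, was at 8.71 and 8.68 RPKM in delta cells and 70.3, 67.4 and 69.4 RPKM in alpha cells, a difference of −2.87 (SE 0.21, adjusted p = 9.28e-06). Nts, the neurotensin precursor, was at 6.12 and 1.51 and 17.5, 64.5 and 29.8 RPKM (−2.90). Edn3 was even across the alpha libraries, whereas Nts was lowest in alpha replicate 1. Without alpha replicate 2 or 3 the higher count of these peptides was 2 and the lower count 3. With all libraries the shares were 21.1% higher and 26.3% lower, beside 9.41% and 2.8% of all genes described. Only 1 cell type reached 1 RPKM for 2 of the 19.

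Of 28 potassium channel genes described, 7 were called at least 2-fold higher in delta cells and 7 at least 2-fold lower. That was 25% each way, beside 9.41% and 2.8% of all genes described. Only 1 cell type reached 1 RPKM for 7 of the 28. Kcnc2, a fast delayed rectifier, was at 15.5 and 14.1 RPKM in delta cells and 0.290, 0.124 and 0.259 RPKM in alpha cells (3.69 (SE 0.16, adjusted p = 6.14e-07)), and Kcna5, another voltage-gated subunit, averaged 15.4 against 1.86 RPKM (2.51). Kcnh6, an erg-type channel, was at 7.56 and 6.53 RPKM in delta cells and 50.4, 64.6 and 79.2 RPKM in alpha cells (−3.05 (SE 0.26, adjusted p = 2.45e-05)). The calcium-binding partners of A-type channels were split, with Kcnip1 at 34.1 and 39.0 and 2.13, 1.12 and 1.295 RPKM (3.93) and Kcnip3 at 2.399 and 2.10 and 15.4, 14.1 and 13.1 RPKM (−2.20). Abcc8, the sulfonylurea receptor of the ATP-sensitive channel, was abundant in both, at 463 and 538 RPKM in delta cells and 212, 229 and 269 RPKM in alpha cells (1.04).

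Of 40 calcium, sodium, cyclic nucleotide-gated and TRP channel genes described, 14 were called at least 2-fold higher in delta cells, or 9 after median-ratio scaling, and 3 at least 2-fold lower. In the deposited values this was 35% and 7.5%, beside 9.41% and 2.8% of all genes described. Only 1 cell type reached 1 RPKM for 10 of the 40. Cacna1h, a low-voltage-activated T-type calcium channel, was at 26.6 and 23.6 RPKM in delta cells and 0.685, 0.439 and 0.523 RPKM in alpha cells (4.07 (SE 0.13, adjusted p = 2.91e-07)). The accessory calcium channel subunits Cacna2d2, at 22.1 and 25.5 and 0.627, 0.160 and 0.259 RPKM (4.20), and Cacna2d3, at 10.3 against 0.858 RPKM on average (2.55), were higher in delta cells as well. Trpa1, a cation channel opened by irritants, averaged 8.66 against 0.162 RPKM (3.06). Hcn4, a pacemaker channel, was at 6.16 and 7.16 RPKM in delta cells and 0.505, 0.421 and 0.483 RPKM in alpha cells (2.34). Lower in delta cells was Cacng4, an accessory subunit of calcium channels and glutamate receptors, at 1.88 against 7.74 RPKM on average (−1.59).

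Of 56 granule fusion genes described, 13 were called at least 2-fold higher in delta cells, or 6 after median-ratio scaling, and 4 at least 2-fold lower. Before scaling this was 23.2% and 7.14%, beside 9.41% and 2.8% of all genes described. Only 1 cell type reached 1 RPKM for 5 of the 56. Syt1, a fast calcium sensor of release, was at 25.6 and 21.1 RPKM in delta cells and 1.89, 1.01 and 1.89 RPKM in alpha cells (3.23 (SE 0.18, adjusted p = 1.66e-06)). Rab3b, a vesicle GTPase, was at 41.9 and 44.3 and 5.32, 5.14 and 4.89 RPKM (2.86), whereas its relative Rab3c was at 2.60 and 2.72 and 9.50, 9.35 and 9.63 RPKM (−1.54). The priming factors were split in the same way: Cadps was at 4.82 and 5.19 RPKM in delta cells and 26.8, 26.3 and 25.3 RPKM in alpha cells (−2.21 (SE 0.16, adjusted p = 7.35e-06)), and Cadps2 at 7.82 and 8.37 and 2.80, 2.74 and 3.01 RPKM (1.22). Stxbp5l, a tomosyn family member, averaged 61.0 against 8.06 RPKM (2.72), and Sytl2, which tethers granules, 1.47 against 11.7 RPKM (−2.36). Vamp8 was at 85.2 and 81.0 and 86.3, 80.2 and 73.2 RPKM and was not called (adjusted p = 0.452).

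Hormone processing also differed. Pcsk1, the convertase that makes glucagon-like peptide 1 from proglucagon, was at 30.1 and 27.4 RPKM in delta cells and 2.93, 3.23 and 3.33 RPKM in alpha cells, a difference of 2.79 (SE 0.17, adjusted p = 2.99e-06). Chgb, a granin of dense-core granules, was at 2538 and 2257 RPKM in delta cells and 405, 418 and 429 RPKM in alpha cells (2.50 (SE 0.16, adjusted p = 3.20e-06)), and Scg2, another granin, at 3021 and 3252 and 649.6, 745 and 816 RPKM (2.08). The granin-like Vgf went the other way, at 46.7 and 52.8 and 157, 230.3 and 183 RPKM (−1.93). Chga, at 2094 and 2664 RPKM in delta cells and 3734, 2803 and 3416 RPKM in alpha cells, and Resp18, at 2599 and 3284 and 3948, 3288 and 3497 RPKM, were not called (adjusted p = 0.113 and 0.148). In all, 8 of 27 genes of prohormone processing and granule cargo were called at least 2-fold higher in delta cells and 3 at least 2-fold lower, the third being Qpct beside Slc30a8 and Vgf. These counts were 29.6% and 11.1%, beside 9.41% and 2.8% of all genes described.

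In glucose metabolism 3 of 54 genes were called at least 2-fold higher in delta cells and 4 at least 2-fold lower, or 5.56% and 7.41%, beside 9.41% and 2.8% of all genes described. These counts were 1 and 6 after median-ratio scaling, 1 and 10 after quantile normalization, and 1 and 7 with hormone reads left out of the totals. Hk1, a hexokinase with high affinity for glucose, was at 3.22 and 2.02 RPKM in delta cells and 12.2, 19.8 and 13.8 RPKM in alpha cells (−2.13 (SE 0.25, adjusted p = 1.95e-04)). Pdk4, the kinase that shuts off pyruvate dehydrogenase, was at 14 and 13.0 RPKM in delta cells and 126, 112 and 101 RPKM in alpha cells (−2.98 (SE 0.23, adjusted p = 1.27e-05)). Gpd2, of the glycerol phosphate shuttle, averaged 9.37 against 27.3 RPKM (−1.49), and the glucose transporter Slc2a3 5.87 against 13.9 RPKM (−1.12). Pck2, the mitochondrial phosphoenolpyruvate carboxykinase, was at 52.5 and 54.6 and 19.2, 18.2 and 18.3 RPKM (1.46), and Pkm, pyruvate kinase, at 299 and 225 and 166, 256 and 185 RPKM, was not called (adjusted p = 0.067).

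Of 48 fatty acid genes, 4 (8.33%) were called at least 2-fold higher in delta cells, a share near the 9.41% of all genes described. At least 2-fold lower were 3 (6.25%), beside 2.8% of all genes described, or 5 genes after quantile normalization. Hadh, a beta-oxidation dehydrogenase that also restrains glutamate dehydrogenase, was at 174 and 192 RPKM in delta cells and 12.6, 10.3 and 9.43 RPKM in alpha cells, a difference of 3.98 (SE 0.19, adjusted p = 8.83e-07), and at 246 to 388 RPKM in beta cells. Lpl, which frees fatty acids from lipoproteins, was at 19.9 and 17.7 RPKM in delta cells and 163, 183 and 185 RPKM in alpha cells, a difference of −3.21 (SE 0.24, adjusted p = 1.00e-05). Fabp3, a fatty acid carrier, averaged 9.02 against 2.11 RPKM (1.72) and Scd1, a desaturase, 1.91 against 7.65 RPKM (−1.78).

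Of 43 amino acid genes described, 14 were called at least 2-fold higher in delta cells and 6 at least 2-fold lower. After median-ratio scaling the higher count was 9. In the deposited values the shares were 32.6% and 14%, beside 9.41% and 2.8% of all genes described. Only delta or only alpha cells reached the level of the entry rule for 4 of the 43, so these had to differ. Arg1, which splits arginine into ornithine and urea, was at 284 and 244 RPKM in delta cells and 23.4, 19.2 and 16.5 RPKM in alpha cells, a difference of 3.69 (SE 0.33, adjusted p = 2.92e-05). Slc7a2, a carrier of arginine and other cationic amino acids, was at 22.2 and 22.0 RPKM in delta cells and 134, 171 and 176 RPKM in alpha cells (−2.84 (SE 0.21, adjusted p = 9.03e-06)). Slc38a4 and Slc7a8, carriers of neutral amino acids, were at 27.5 and 26.5 and 33.8 and 38.9 RPKM in delta cells and at 157, 184 and 217 and 192, 177 and 163 RPKM in alpha cells, differences of −2.77 and −2.28. Oat, which turns ornithine towards glutamate, averaged 6.68 against 28.1 RPKM (−1.92). On the delta side, Slc7a5, a carrier of large neutral amino acids, was at 93.5 and 100.2 and 20.2, 26.2 and 21.3 RPKM (2.06), and Slc1a4, a carrier of alanine and serine, averaged 20.0 against 3.91 RPKM (2.09).

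Genes of endoplasmic reticulum folding and stress lay largely on the delta side. Of 35 genes, 23 (65.7%) were called at least 2-fold higher in delta cells and 0 lower, beside 9.41% and 2.8% of all genes described, and the list's median log2 difference was 1.13 beside 0.27 over all genes. After median-ratio scaling 12 were called at least 2-fold higher, 1 lower, and the median was 0.81 beside −0.01. Hspa5, the main chaperone of this compartment, was at 1093 and 1106 RPKM in delta cells and 389, 400.2 and 388 RPKM in alpha cells, a difference of 1.47 (SE 0.11, adjusted p = 8.44e-06), and at 648 to 802 RPKM in beta cells. Hsp90b1, a second luminal chaperone, was at 1024 and 977 and 409, 465 and 455 RPKM (1.16), Hyou1 at 285 and 291 and 87.3, 85.0 and 88.3 RPKM (1.69), and Sdf2l1, a chaperone cofactor, at 97.2 and 107 and 28.2, 25.0 and 25.0 RPKM (1.93). Calr, a lectin chaperone that binds calcium, was at 603 and 635 and 274, 303 and 289 RPKM (1.09), and its call ended after median-ratio scaling (adjusted p = 0.0717). Replicates of each cell type lay close together for all of these chaperones.

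Among regulators and targets of the stress branches, Atf4, the factor made when translation is restrained, was at 271 and 257 RPKM in delta cells and 123, 102 and 107 RPKM in alpha cells (1.25). Chac1, a glutathione-degrading enzyme induced by Atf4, was at 64.2 and 61.8 RPKM in delta cells and 5.11, 3.89 and 3.03 RPKM in alpha cells, a difference of 3.70 (SE 0.26, adjusted p = 7.15e-06), and at 66.4 to 122 RPKM in beta cells. Trib3, a pseudokinase induced in the same response, was at 22.3 and 21.5 and 2.89, 3.38 and 1.93 RPKM (2.68), and at 65.3 to 115 RPKM in beta cells. Asns, asparagine synthetase, was at 136 and 139 and 39.1, 43.0 and 41.9 RPKM (1.70), Ddit3, which encodes Chop, at 69.9 and 59.0 and 28.9, 36.7 and 24.2 RPKM (1.16), and Herpud1, of the degradation machinery, at 225 and 231 and 51.5, 44.1 and 43.4 RPKM (2.29). The member lower in delta cells was Ero1lb, an oxidase of protein folding, at 13.7 and 14.6 RPKM in delta cells and 21.4, 25.3 and 25.5 RPKM in alpha cells (−0.76, adjusted p = 0.00579), which was not called without delta replicate 2 (adjusted p = 0.0603). The cells of both types had been cultured overnight, dissociated and sorted before lysis.

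Folding genes are textbook targets of factors that bind short elements near their start sites, and the sequences printed here hold such elements. Each is cut from the 250 bases before a RefSeq start in GRCm38.p6, with 20 bases on either side of a match, written in the direction of the gene. Capitals in the first 5 mark the endoplasmic reticulum stress element, which is CCAAT, 9 bases of any kind and CCACG, or its reverse complement, and capitals in the last 2 mark TTGCATCA, the form of the element bound by Atf4 with C/EBP partners; both strands were searched, and the 2 motifs do not overlap in any window printed.
Hspa5: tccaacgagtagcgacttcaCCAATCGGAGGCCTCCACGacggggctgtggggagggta
Hsp90b1: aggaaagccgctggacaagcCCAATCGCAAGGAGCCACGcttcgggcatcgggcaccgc
Canx: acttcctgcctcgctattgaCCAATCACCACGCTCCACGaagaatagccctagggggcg
Pdia6: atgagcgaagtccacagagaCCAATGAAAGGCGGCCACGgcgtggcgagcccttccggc
Dnajc3: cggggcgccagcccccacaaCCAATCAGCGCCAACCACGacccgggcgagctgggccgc
Herpud1: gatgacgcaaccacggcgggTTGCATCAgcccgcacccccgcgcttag
Chac1: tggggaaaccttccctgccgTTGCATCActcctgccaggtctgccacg
They lie at chr2:34772005-34772063 (plus strand), chr10:86705618-86705676 (minus), chr11:50325780-50325838 (minus), chr12:17266471-17266529 (plus), chr14:118937807-118937865 (plus), chr8:94386297-94386344 (plus) and chr2:119351029-119351076 (plus), in the order printed. The first motif was found in 9 of the 29 matched promoters of this list (31.0%), namely those of Hspa5, Hsp90b1, Calr, Canx, Pdia6, Dnajc3, Creld2, Syvn1 and Derl3, and in 35 of all 27025 promoters (0.13%). The second was found in 3 of the 29 (10.3%), those of Atf3, Herpud1 and Chac1, and in 248 of all promoters (0.918%). Among 9220 matched promoters of genes described, 14 (0.152%) held the first and 61 (0.662%) the second. The Hsp90b1 window holds another stress element, in reverse orientation and 107 bases before the start, which is not printed. Matches in Calr, Creld2 and Derl3, also in reverse, and in Syvn1 and Atf3 are not printed either. Because the list holds textbook targets of these factors, its high shares are not independent evidence. A match is a description of the letters and not evidence of binding in these cells.

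Of 30 immediate early and heat shock genes described, 10 were called at least 2-fold higher and 2 at least 2-fold lower, and without delta replicate 1 the first count fell to 4. Fos, a subunit of the AP-1 factor, was at 457 and 326 RPKM in delta cells and 111, 58.8 and 116 RPKM in alpha cells (2.0, adjusted p = 0.00773), and was not called without delta replicate 1 (adjusted p = 0.133). Arc, which is made near active synapses in neurons, was at 39.2 and 20.2 and 3.996, 2.58 and 4.70 RPKM (2.62). Delta replicate 1, the male pool, was the higher delta library in Fos, Arc and Nr4a1. Klf4, a zinc finger factor, was lower in delta cells, at 3.58 and 3.56 RPKM against 14.8, 20.0 and 16.1 RPKM in alpha cells (−1.98). With all libraries the list's shares were 33.3% higher and 6.67% lower, beside 9.41% and 2.8% of all genes described. Only 1 cell type reached 1 RPKM for 2 of the 30.

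**Figure D4:**
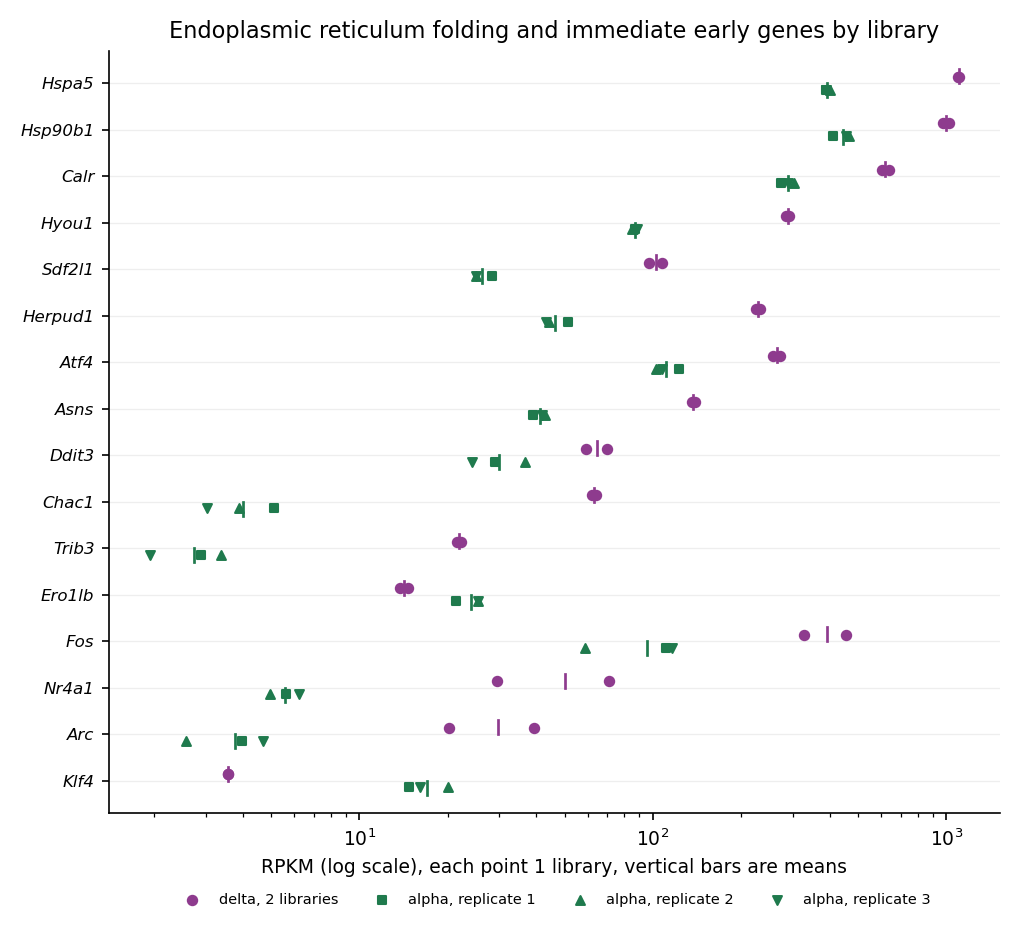
RPKM on a log scale of endoplasmic reticulum folding and stress genes (Hspa5 to Ero1lb) and immediate early genes (Fos to Klf4) in each library, with delta libraries as circles and the 3 alpha libraries as squares and triangles. The 2 delta libraries nearly coincide for the folding genes and spread apart for Fos, Nr4a1 and Arc; Ero1lb and Klf4 lie to the right in alpha cells.

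Delta cells carried more transcripts of genes that shape cell contacts and processes. Of 43 adhesion and junction genes described, 24 (55.8%) were called at least 2-fold higher in delta cells and 1 (2.33%) at least 2-fold lower. All genes described gave 9.41% and 2.8%. The lower count was 2 after median-ratio scaling or without delta replicate 1, 3 without alpha replicate 1, with a pseudocount of 0.1 or after quantile normalization, and 4 with hormone reads left out; 11 of the 43 passed 1 RPKM in 1 cell type alone. Slitrk6, a synaptic adhesion protein, was at 52.5 and 54.1 RPKM in delta cells and 2.83, 1.997 and 1.66 RPKM in alpha cells (4.11 (SE 0.41, adjusted p = 6.28e-05)). Cdh22, a cadherin, averaged 19.0 against 0.921 RPKM (3.44), Ocln, of tight junctions, 20.9 against 1.89 RPKM (2.91), and Cbln4, a secreted synapse organiser, 9.04 against 0.133 RPKM (3.08). Epcam, an epithelial adhesion molecule, was at 413 and 389 RPKM in delta cells and 113, 129.8 and 109.9 RPKM in alpha cells (1.78). Gjd2, which encodes the gap junction protein connexin 36, was at 26.4 and 28.3 and 11.1, 8.62 and 10.2 RPKM (1.36).

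Among axon guidance and growth cone genes, 20 of 54 were called at least 2-fold higher in delta cells and 5 at least 2-fold lower. These were 37% and 9.26%, beside 9.41% and 2.8% of all genes described. With a pseudocount of 0.1 the lower count was 8, and 15 of the 54 passed through 1 cell type alone. Ptprz1, a receptor phosphatase, was at 43.6 and 44.7 RPKM in delta cells and 1.17, 0.426 and 0.618 RPKM in alpha cells (4.71 (SE 0.21, adjusted p = 6.44e-07)). Gap43, a growth cone protein, was at 68.2 and 74.5 and 2.58, 0.774 and 2.16 RPKM (4.70), Efnb3, a membrane-bound ephrin, at 41.2 and 53.2 and 2.12, 1.60 and 1.77 RPKM (4.06), and Nrp2, a semaphorin receptor, at 10.1 and 14.2 and 0.325, 0.182 and 0.268 RPKM (3.34). In the alpha direction, Nrcam, a neuronal adhesion molecule, was at 0.463 and 0.327 RPKM in delta cells and 5.03, 7.52 and 9.24 RPKM in alpha cells (−2.60 (SE 0.29, adjusted p = 1.39e-04)).

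Growth factor genes showed both directions, with 19 of 59 at least 2-fold higher in delta cells and 8 at least 2-fold lower. The shares were 32.2% and 13.6%, beside 9.41% and 2.8% of all genes described. Only 1 cell type reached 1 RPKM for 14 of the 59, so these had to differ. The secreted Wnt antagonists were split: Frzb was at 109 and 115 RPKM in delta cells and 3.76, 1.42 and 1.61 RPKM in alpha cells (5.19 (SE 0.27, adjusted p = 1.15e-06)), with 51.8 to 72.0 RPKM in beta cells, and Sfrp5 was at 32.7 and 36.8 and 179.5, 144 and 120.3 RPKM (−1.999). Lrp5, a Wnt co-receptor, was at 14.1 and 13.9 and 0.498, 0.435 and 0.443 RPKM (3.36), and Bmp3, a secreted member of the bone morphogenetic protein family, at 39.97 and 44.8 and 1.29, 0.267 and 0.553 RPKM (4.71). Gfra3, a receptor for artemin, was at 4.37 and 4.03 RPKM in delta cells and 32.2, 32.9 and 39.95 RPKM in alpha cells (−2.83 (SE 0.15, adjusted p = 1.53e-06)), and Il1r1, the interleukin 1 receptor, at 53.4 and 38.8 and 107, 168 and 207 RPKM (−1.78). Of 38 genes of zinc transport and the lysosome, 2 were at least 2-fold higher and 2 lower, or 5.26% each, beside 9.41% and 2.8% of all genes described. The higher count was 1 after median-ratio scaling and 4 with a pseudocount of 0.1, and the lower count was 4 after quantile normalization. Ctsh and Ctsz, lysosomal cathepsins, went in opposite directions, at 19.7 and 23.1 and 115 and 85.7 RPKM in delta cells and 0.886, 1.20 and 1.10 and 294, 529 and 424 RPKM in alpha cells.

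**Figure D5:**
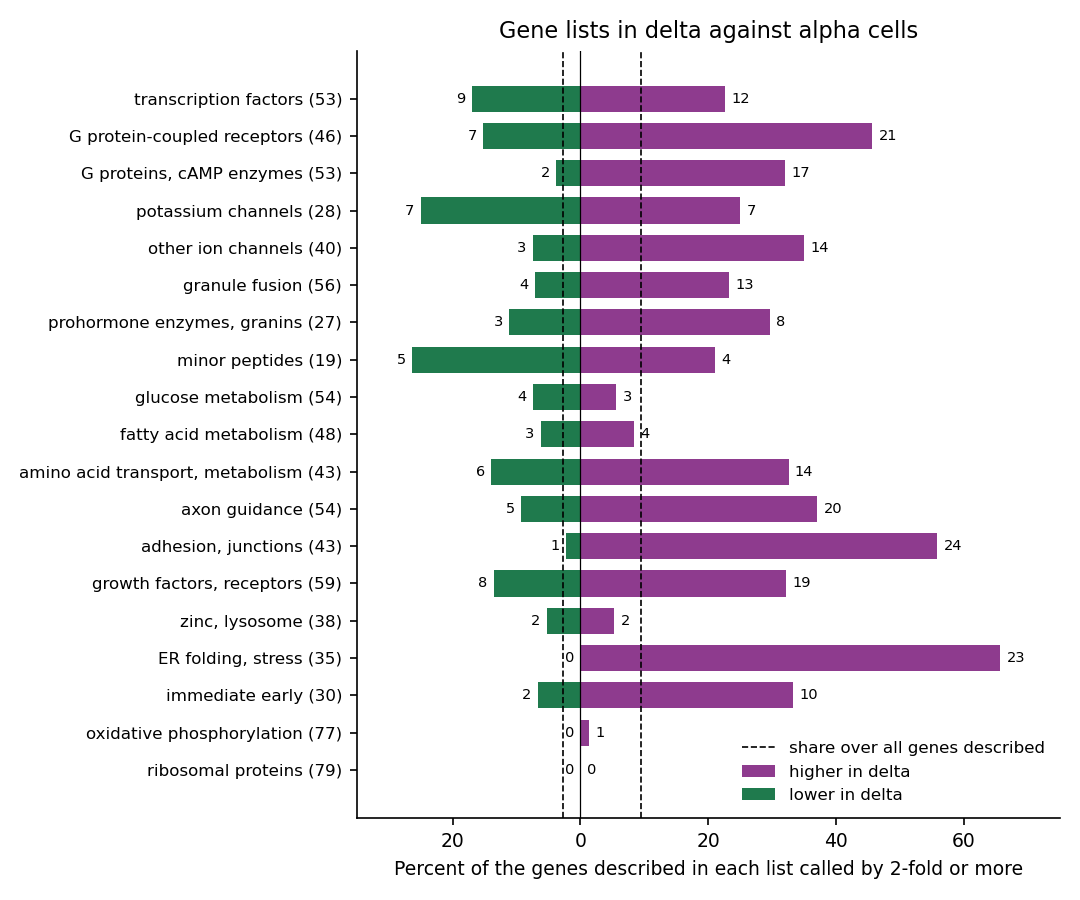
Percent of the genes described in each list shown that were called at least 2-fold higher in delta cells (purple, right) or lower (green, left), with counts at the bar ends and list sizes in parentheses; dashed lines mark the shares over all 12351 genes described, 9.41% and 2.8%. Folding and adhesion genes reach furthest to the right, potassium channels and minor peptides furthest to the left, and ribosomal and oxidative phosphorylation genes stay near 0.

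Few housekeeping genes differed by 2-fold, beside 9.41% higher and 2.8% lower over all genes described. Of 77 oxidative phosphorylation subunits 1 was called at least 2-fold higher and 0 lower, and of 79 ribosomal protein genes 0 in either direction. After median-ratio scaling these 2-fold counts were 0 and 0 for oxidative phosphorylation and 0 and 1 for ribosomal genes, and the ribosomal lower count was 4 after quantile normalization and 2 without alpha replicate 2. The oxidative phosphorylation call was also lost without delta replicate 1 or 2, or alpha replicate 1 or 3. Counting calls of any size, 11 oxidative phosphorylation genes were higher and 4 lower, and 0 and 8 after median-ratio scaling. For the 79 ribosomal genes these counts were 1 and 8, and 0 and 18 after scaling. The shares over all genes described were 32.8% higher and 5.99% lower, and 14.9% and 10.6% after scaling. Markers of other cells the sort could hold were uneven between libraries. The summed RPKM of 28 acinar genes was 1241 and 975 in the delta libraries and 129, 4339 and 1043 in the alpha libraries, with alpha replicate 2 highest and alpha replicate 1 lowest, and 0 of the 23 described were called. Sums over ductal markers were 1131 and 1004 and 1040.0, 2237 and 1727, of which Spp1, a secreted phosphoprotein, gave 197 and 134 RPKM in delta cells and 691, 1797 and 1355 RPKM in alpha cells (−2.83) and Tspan8, a tetraspanin, 309 and 269 and 23.0, 22.3 and 25.8 RPKM (3.55). Immune markers summed to 79.0 and 92.5 and 29.8, 45.6 and 26.3, and C1qa, a complement subunit among them, was at 57.7 and 73.5 and 17.7, 13.9 and 11.1 RPKM (2.15). Endothelial sums were 12.1 and 16.2 and 8.38, 11.6 and 12.4, mesenchymal sums 11.6 and 9.60 and 6.35, 9.19 and 6.94, and Schwann cell sums 31.6 and 32.6 and 20.2, 22.3 and 20.8. The part of these cells in the differences above was not tested.

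The difference between delta and alpha cells was also compared between the sexes, through an interaction of cell type with sex. With 1 delta library of each sex and 1 female alpha library, 1 of 12700 genes tested was called, and 157 had an unadjusted p under 0.05. That gene was Snord118, a small nucleolar RNA, at 1.12 RPKM in the male and 0 in the female delta library, and at 0, 0 and 2.61 RPKM in the alpha libraries; the interaction was −2.94 (SE 0.18, adjusted p = 0.0127). It was not called with a pseudocount of 0.1. This RNA is short, so its values rest on few reads.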

How the data were processed

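RNA from 10 sorted pools (2 delta, 3 alpha, 5 beta) was sequenced from TruSeq RNA v2 libraries, which are not strand-specific. The authors deposited 1 table of RPKM values, 1 column per library. STAR 2.4, featureCounts, edgeR 3.12.0 and build GRCm38.p3 are named in the submitters' processing notes without their roles; the annotation, and how shared reads were treated, were not given in the sources used here. Overlapping and antisense genes therefore cannot be told apart.

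Values were tested as log2(RPKM + 1) in limma 3.58.1 (R 4.3.3) with cell type and sex, all 10 libraries sharing 1 estimate of spread, a mean-variance trend, and Benjamini-Hochberg adjustment over 12700 genes at 1 RPKM or more in at least 2 of the 10 libraries. The logarithm with a pseudocount of 1 understates changes of low genes. Calls need an adjusted p under 0.05, and 2-fold calls also a log2 difference of at least 1. The fit was tested on simulated data that drew all libraries from shared mean levels with 1 spread, apart from genes changed on purpose. Those data were not built with the gap in hormone reads or a library standing apart, so that test does not cover them. Library totals come from steps between low RPKM values and were whole to within 0.093 reads. Several multiples of a total fit such steps; the largest that kept gene lengths whole was taken, and the reads recovered per gene then summed to 99.9958% to 99.9967% of it. Reads without molecular identifiers carry amplification as well as counting error.

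Lists and genes were chosen with earlier results of these data known. Named genes are the hormone genes and the markers Sst, Hhex, Gcg and Ttr; the 15 called genes of largest difference per direction among those without overlap between delta and alpha libraries; from every list at most 5 called members and 2 that were not called; in a family called both ways, the largest change on each side; genes at 10 RPKM or more in every library of one cell type and under 1 RPKM in every library of the other (up to 10 per direction); and genes called in the interaction with sex. Chosen after their values were seen were Irx2, Pou3f4, Isl1, Crhr2, Sstr2, Gpr119, Adra2a, Adrb1, Ffar4, Avpr1a, Gcgr, Rgs4, Kcnip3, Abcc8, Cacng4, Cadps2, Rab3c, Scg2, Vgf, Slc7a5, Hyou1, Hspa5, Hsp90b1, Calr, Ddit3, Atf4, Epcam, Gjd2, Sfrp5 and Il1r1, and the genes whose windows are printed. Coordinates are GENCODE M21 by symbol, and sequences are RefSeq on GRCm38.p6, matched by symbol; protein sequences were not used here. Alternatives changed the pseudocount, filter, scaling, covariates and libraries. Some genes that the naming rule selects are not reported here.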

Additional observations from a re-analysis of the deposited data

Results flagged for a closer look

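Snord118, a small nucleolar RNA, had an interaction of cell type with sex of −2.94 on the log2 scale (females minus males). It was at 0 RPKM in 3 of the 5 delta and alpha libraries, at 1.12 RPKM in delta replicate 1 (male) and at 2.61 RPKM in alpha replicate 3 (female). The gene spans only 69073427 to 69073561 on chromosome 11, so these values rest on few reads. Each sex had 1 delta library, and 157 genes had an unadjusted p under 0.05.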

How the results depend on the processing

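Counts of calls of any size depended on scaling. Against 4051 higher and 740 lower in the deposited values, they were 1836 and 1312 after median-ratio scaling, 1959 and 2022 after quantile normalization, and 1859 and 1393 with hormone reads left out of the totals, and those last 2 settings gave 551 and 525 genes at least 2-fold lower against 346. Leaving out 1 library gave 2169 (without delta replicate 1) to 4568 higher and 479 (without delta replicate 2) to 779 lower genes of any size. The interaction with sex called 1 gene, 0 with a pseudocount of 0.1 and 201 with no filter on low values. Of 137 named genes with a call, 10 lost it in at least 1 of 21 alternatives, among them Iapp with no filter (adjusted p = 0.0577), and 2 changed sign, Ppy (−0.17) and Pyy (−0.034) after quantile normalization. Uncalled Vamp8 turned to −0.21 after median-ratio scaling, −0.24 after quantile normalization, and −0.22 with hormone reads left out. A fit of recovered reads with limma voom, chosen after seeing the data, called 3824 higher and 665 lower. No paired analysis was possible because the labels give the groups no shared replicate numbers. With 2 delta pools, the spread rests mainly on the other cell types. At these depths 1 RPKM of a gene of 1 kb is 16.7 to 20.2 reads, so differences below that level rest on few reads. A shorter gene has fewer reads at the same RPKM.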

Other observations

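Among the 346 genes at least 2-fold lower in delta cells, 17 differed by 3-fold or more among the alpha libraries themselves. Besides the genes described above, these included Lcn2, the siderophore-binding lipocalin, at 2.60, 17.99 and 14.2 RPKM in alpha replicates 1, 2 and 3. Trf, which encodes transferrin, was at 6.86, 22.1 and 26.8 RPKM, Fgg, a fibrinogen chain, at 3.34, 7.04 and 12.6 RPKM, and Ccl2, a chemokine that attracts monocytes, at 0.744, 2.79 and 5.62 RPKM. Alpha replicate 1 was lowest in each. In delta cells Lcn2 was at 1.62 and 0.631 RPKM and Trf at 3.50 and 2.63 RPKM. Others of the 17 were Capn8, at 0.728 RPKM in alpha replicate 1, and the short RNAs Mir1943 and Snord68. For Snord68 the lowest alpha library was replicate 2, at 2.47 RPKM. How many of all genes described differ by 3-fold or more among the alpha libraries was not counted.

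Among the 103 genes higher in delta cells by 3 or more on the log2 scale, alpha replicate 1 was the highest alpha library for 70, against 2654 of all 12351 genes described. The median ratio of alpha replicate 1 to the mean of the other alpha libraries was 1.34 over the 103 genes and 0.908 over all genes described.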
